A study of Mus musculus with 10 samples.

Results

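Cytidine deaminase (Cda) and the enzymes that salvage pyrimidine nucleosides beside it were followed in the mouse hippocampus after status epilepticus (SE). Of the 8 genes chosen by symbol (Cda, Upp1, Uck1, Uck2, Dck, Dctd, Cmpk1 and Tk2), 7 were found among the 15900 genes of the table, and the uridine phosphorylase gene Upp1 was not analysed here. The set was drawn up because Cda was already known to be higher at 6 h in these libraries, so its levels in the comparisons with pre-SE or SE 6 h mice are given as a description, without a test.

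The study used whole hippocampi of young adult male ICR mice, 2 per group in 5 groups. SE was induced with pilocarpine (PILO), a muscarinic agonist, after methyl scopolamine, which limits its effects outside the brain, and was ended with diazepam. No transgenic line was used. The pre-SE mice are labelled untreated, and by the study's methods control animals received saline in place of PILO. The SE 6 h and SE 2 days mice were examined 6 h and 2 days after SE, and the SE + LEV 6 h and SE + LEV 2 days mice were in addition given levetiracetam (LEV), an antiseizure drug, by mouth, once before 6 h and repeatedly before 2 days. The 2 libraries of a group are labelled as replicates, and p-values measure the spread between them. Expression was measured by cap analysis of gene expression (CAGE), which counts the capped 5′ ends of transcripts as tags, so that a level does not depend on the length of the transcript. Levels are in CPM, tag counts scaled to the total of a library over the listed genes.

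Pyrimidine salvage returns free nucleosides to the nucleotide pool. Deaminases turn cytidine and deoxycytidine into uridine and deoxyuridine, kinases trap nucleosides in the cell by adding a phosphate, and a monophosphate kinase prepares the products for nucleic acid and lipid synthesis. The brain takes up uridine and cytidine from blood, and neurons, which do not divide, need deoxynucleotides mainly for mitochondrial DNA and repair.

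The libraries held 10540698 to 51710968 tags, recovered as totals over the listed genes, so that 3 tags were worth 0.058 to 0.285 CPM. The 5 neuron markers summed to 7669 to 7933 CPM in the pre-SE mice and to 3655 to 4927 CPM in the SE 2 days mice, and the 5 microglia markers to 352 to 411 and 766 to 931 CPM. Of the neuron markers, Rbfox3 overlapped between these groups, at 272.31 and 330.82 CPM and then 281.70 and 208.91. Prox1 overlapped as well, at 59.15 and 56.12 CPM and then 64.28 and 39.36. In bulk tissue, fewer cells of a type and less RNA per cell cannot be told apart. The 4 choroid plexus markers listed ranged from 8.72 to 4025 CPM over the libraries, with SE 6 h replicate 1 lowest and replicate 2 highest. The part of such tissue in the results below was not tested.

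Cda, on chromosome 4 of the mm9 build (137894339 to 137923907, minus strand), overlaps no other annotated gene. Uck2, the uridine-cytidine kinase that showed the highest values among the other enzymes relative to pre-SE at 2 days, lies on chromosome 1 (169156221 to 169215258, minus strand). The 250 bases before the annotated start of these 2 genes are shown because Cda had its highest level at 6 h and Uck2 its highest at 2 days. They were read from mm9 (NCBIM37) with the GENCODE M1 gene starts, 5′ to 3′ on the minus strand, at chr4:137923908-137924157 and chr1:169215259-169215508, and capitals mark CpG dinucleotides.
Cda: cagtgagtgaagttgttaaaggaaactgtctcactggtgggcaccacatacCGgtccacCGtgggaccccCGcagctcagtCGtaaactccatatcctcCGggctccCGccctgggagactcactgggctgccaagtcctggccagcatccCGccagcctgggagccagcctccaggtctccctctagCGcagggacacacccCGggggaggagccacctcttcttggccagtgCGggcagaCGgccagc
Uck2: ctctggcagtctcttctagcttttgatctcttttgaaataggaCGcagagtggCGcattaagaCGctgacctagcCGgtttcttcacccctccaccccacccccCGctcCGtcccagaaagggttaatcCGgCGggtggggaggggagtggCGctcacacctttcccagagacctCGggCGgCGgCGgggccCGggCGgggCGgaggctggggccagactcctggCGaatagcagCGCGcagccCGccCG
The Cda stretch had 64.8% GC but only 11 CpG, an observed-to-expected ratio of 0.423, lower than in most of the 15897 promoters read (24.6th percentile). Uck2, with 66% GC, had 21 CpG and a ratio of 0.771. Searched on both strands, none of the 7 enzymes' promoters held the AP-1 letters TGANTCA (4.47% of all promoters), the CRE letters TGACGTCA (2.42%), CCAAT (34.7%) or TATAAA (7.39%). The GC box letters GGGCGG, found in 52.4% of all promoters, occurred once in Cda and Cmpk1, in 2 places in Tk2, in 4 places in Uck2 and Dck, and in neither Uck1 nor Dctd. The gene values do not say at which start the tags lay, so these windows describe the annotated start only.

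Cda was nearly silent before SE, at 0.28 and 0.02 CPM in the pre-SE mice, the latter a single tag. In the SE 6 h mice Cda stood at 90.93 and 21.58 CPM, and in the SE + LEV 6 h mice at 1.30 and 12.81 CPM. At 2 days the SE mice had 1.10 and 2.44 CPM and the SE + LEV mice 0.66 and 5.30 CPM. Both SE 6 h mice thus lay above all 8 other libraries, both pre-SE mice below all others, and the remaining groups overlapped one another.

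Mean Cda levels were 0.15 ± 0.184 CPM before SE, 56.3 ± 49.0 in SE 6 h, 7.06 ± 8.14 in SE + LEV 6 h, 1.77 ± 0.948 in SE 2 days and 2.98 ± 3.28 in SE + LEV 2 days (SD, n = 2 each). In this order of levels, SE 6 h, SE + LEV 6 h, SE + LEV 2 days, SE 2 days and pre-SE, the neighbours SE + LEV 6 h and SE + LEV 2 days overlapped, as did SE + LEV 2 days and SE 2 days. Pooling the tags of a group, the pre-SE level was 0.112 CPM from 9 tags (exact Poisson 95% interval 0.051 to 0.212, counting error only) and the SE 6 h level 68.8 CPM from 3150 tags (66.4 to 71.3). Of the other groups, SE 2 days rested on the fewest tags, 77.

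**Figure D1:**
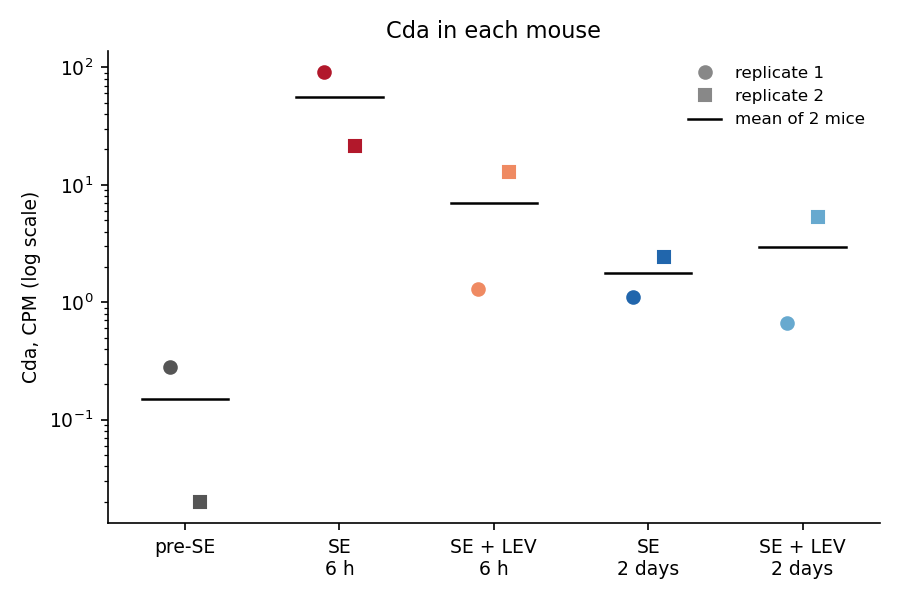
Cda in CPM on a log scale (vertical axis) in each of the 10 mice, by group (horizontal axis). Circles are replicate 1, squares replicate 2 and bars the mean of 2 mice, and the SE 6 h mice, at 90.93 and 21.58 CPM, sit above every other mouse.

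On the log2(CPM + 0.1) scale, on which fold changes of low genes are understated, Cda was 7.70 higher in SE 6 h than in pre-SE mice (SE 1.19), and between 6.67 and 8.74 higher when any one mouse was left out. The difference was -4.67 for SE 2 days against SE 6 h and 3.03 for SE 2 days against pre-SE. For SE + LEV 6 h against SE 6 h it was -3.39, and ran from -1.78 without SE + LEV 6 h replicate 1 to -4.99 without SE + LEV 6 h replicate 2. Each of these is a description of the values that chose the gene.

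Cda was tested only between groups other than pre-SE and SE 6 h. The spread in these tests was estimated over all 5 groups, so the pre-SE and SE 6 h mice still entered the intervals and p-values. SE + LEV 2 days and SE 2 days mice differed by 0.21 on the log2 scale (95% interval -2.42 to 2.85, limma adjusted p = 1.0). Between SE + LEV 2 days and SE + LEV 6 h mice Cda differed by -1.07 (95% interval -3.71 to 1.57, limma adjusted p = 0.752). Neither difference exceeded the spread between replicates, and intervals this wide leave room for several-fold differences in both directions.

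The 2 mice of a group differed more in Cda than in almost any other gene. The within-group SD of Cda was 1.63 on the log2 scale, larger than that of 99.6% of all genes and of 98.5% of 1036 genes of similar level, against 0.21 to 0.46 for the other 6 enzymes and a median of 0.33 over all genes. Cda was higher in replicate 1 of SE 6 h and in replicate 2 of SE + LEV 6 h. Of the 436 other genes called higher at 6 h, 37.6% were higher in replicate 1 of SE 6 h (46.9% of all genes) and 68.6% in replicate 1 of SE + LEV 6 h (42.4% of all genes), so most stood in the reverse order to Cda. At 2 days Cda was higher in replicate 2 of both groups. There 29.1% of the 436 were higher in replicate 1 of SE 2 days (54.8% of all genes), most in the same order as Cda, and 62.8% in replicate 1 of SE + LEV 2 days (44.7% of all genes), most in the reverse order. Each of the 4 choroid plexus markers stood in the reverse order to Cda in all 5 groups. Ttr, for example, had 5.83 and 1667.9 CPM before SE and 4.33 and 3935.7 in SE 6 h. In SE + LEV 6 h it had 843.42 and 29.98 CPM. At 2 days it had 55.59 and 13.52 CPM in SE and 1475 and 18.89 in SE + LEV mice. The part of such tissue in the spread of Cda was not tested.

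The other deaminase of the set, Dctd, which deaminates dCMP to dUMP and so feeds thymidylate synthesis, had 2.90 and 3.35 CPM before SE, 1.96 and 1.51 in SE 6 h and 1.93 and 3.42 in SE + LEV 6 h. At 2 days Dctd had 3.14 and 2.29 CPM in SE and 2.97 and 3.16 in SE + LEV mice. Both SE 6 h values lay below the pre-SE pair, the opposite order to Cda, whereas at 2 days the groups overlapped. The difference at 6 h was -0.82 (95% interval -1.69 to 0.04) and did not pass (limma adjusted p = 0.306).

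Uck1 and Uck2 phosphorylate uridine and cytidine, the first step of ribonucleoside salvage. Uck1 had 38.80 and 65.21 CPM before SE, 35.60 and 36.73 in SE 6 h, 28.94 and 35.86 in SE + LEV 6 h, 42.91 and 43.51 in SE 2 days and 55.07 and 38.94 in SE + LEV 2 days. Its span overlaps Pomt1 on the opposite strand, a gene that is also listed, so tags of Uck1 and Pomt1 can be told apart only where strand was used. The SE 6 h mice lay just below the lower pre-SE mouse, and the difference of -0.48 (95% interval -1.12 to 0.17) did not pass (limma adjusted p = 0.418).

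Uck2 had 38.87 and 53.39 CPM before SE, 36.63 and 36.25 in SE 6 h and 31.20 and 39.85 in SE + LEV 6 h. At 2 days it stood at 58.81 and 101.97 CPM in SE mice and at 74.62 and 35.08 in SE + LEV mice. Both SE 2 days mice thus lay above all pre-SE and 6 h mice, while of the SE + LEV 2 days mice 1 lay above them and 1 within their range. A second annotated entry with the name Uck2 lies 2171 bases from this one, and how tags were shared between them is not given.

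Dck, the deoxycytidine kinase that starts deoxynucleoside salvage in the cytosol, had 15.76 and 10.96 CPM before SE, 9.69 and 7.54 in SE 6 h and 8.87 and 9.68 in SE + LEV 6 h, and 11.22 to 12.57 CPM in the 4 mice at 2 days. All 4 mice at 6 h lay below all pre-SE and 2 days mice. The difference between SE 6 h and pre-SE was -0.61 (95% interval -1.26 to 0.03, limma adjusted p = 0.307), and that between SE + LEV 6 h and pre-SE -0.50 (limma adjusted p = 0.615). Neither passed.

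Tk2, the mitochondrial thymidine and deoxycytidine kinase, had 40.70 and 44.77 CPM before SE, 32.36 and 48.17 in SE 6 h, 34.52 and 42.79 in SE + LEV 6 h, 30.87 and 31.09 in SE 2 days and 36.97 and 42.88 in SE + LEV 2 days. The SE 2 days mice were lowest, below both pre-SE mice, and at 6 h the groups overlapped. Cmpk1, which converts UMP, CMP and dCMP to diphosphates and was the most abundant enzyme of the set, had 106.01 and 122.82 CPM before SE, 118.45 and 74.14 in SE 6 h, 101.17 and 88.80 in SE + LEV 6 h, 128.94 and 161.68 in SE 2 days and 120.86 and 72.33 in SE + LEV 2 days. Only in SE 2 days did both mice exceed both pre-SE mice.

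**Figure D2:**
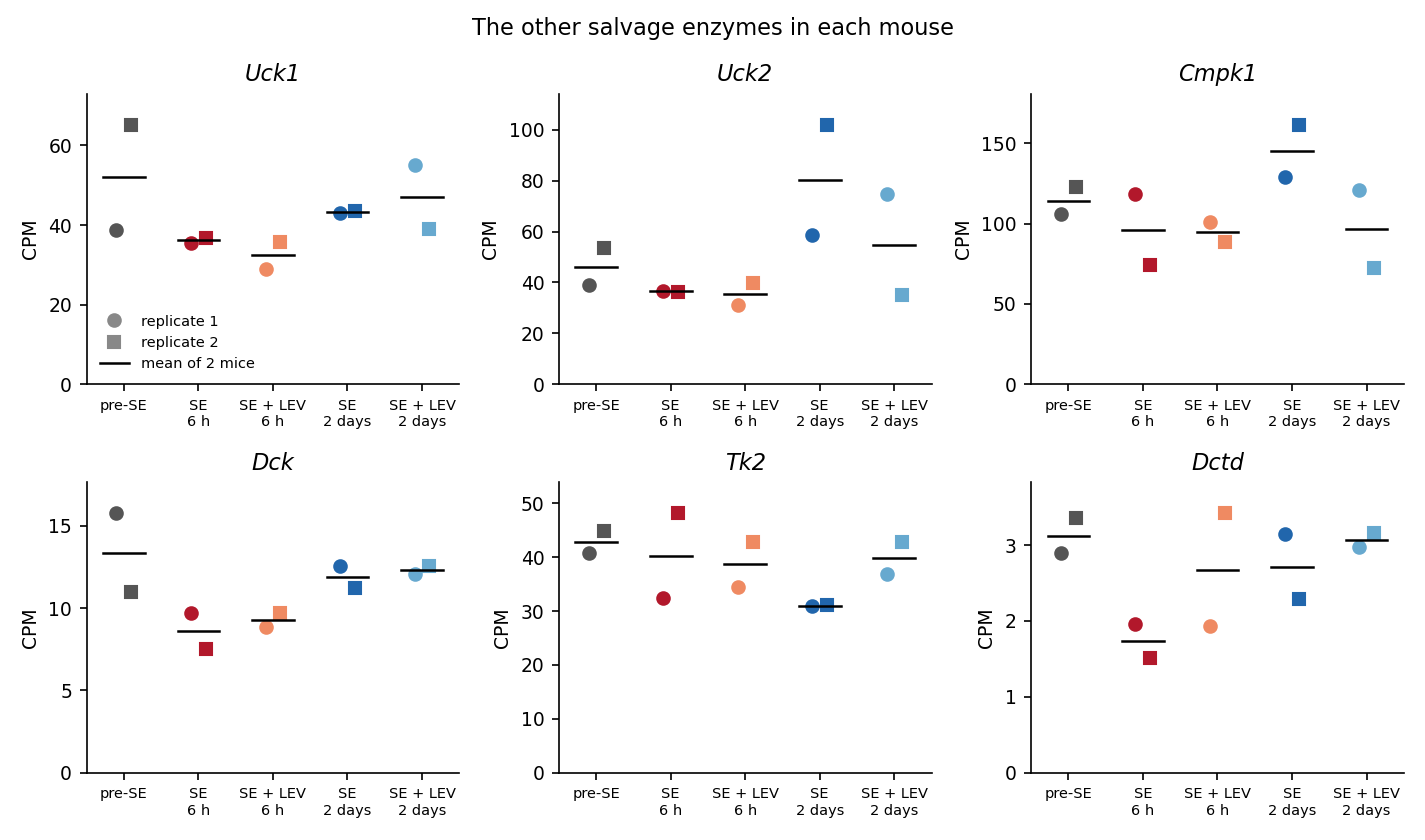
CPM (vertical axes, from 0) of the 6 other enzymes in each mouse by group (horizontal axes). Circles are replicate 1, squares replicate 2 and bars the mean of 2 mice; no enzyme has both SE 6 h points above the pre-SE pair, and Uck2 and Cmpk1 have both SE 2 days points above it.

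The question the set was drawn up for was whether the enzymes around Cda were higher at 6 h too. None of the 6 had both SE 6 h values above the pre-SE pair (18.6% of all genes did), and 4 of 6 had both below (31.3% of all genes did). By limma 0 of 6 were called in either direction at an adjusted p of at most 0.05, where 2.96% of the 15851 genes tested were called, and 0 of 6 had an unadjusted p under 0.05 (17.7% of all genes did). edgeR and DESeq2 on the recovered tags called 0 of 6 as well.

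All 6 estimates lay below 0, against 60% of all genes, from -0.82 for Dctd to -0.11 for Tk2, which turned to 0.0153 when libraries were rescaled by the median of gene-wise ratios and to 0.17 without SE 6 h replicate 1, as Cmpk1 turned from -0.28 to 0.0539 without SE 6 h replicate 2. Their median was -0.40 beside -0.13 over all genes, and -0.27 beside -0.00473 after that rescaling. In the main fit, without rescaling, the highest upper 95% limit among them was that of Uck2, at 1.43-fold. The Uck2 estimate of -0.32 rose to as much as -0.19 over the alternatives that kept all mice, so this limit depends on the processing.

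The share of Cda in the summed level of the set followed these differences. Cda made up 0.115% and 0.00666% of the 7 enzymes' CPM in the pre-SE mice, 27.9% and 9.55% in SE 6 h, 0.625% and 5.49% in SE + LEV 6 h, 0.395% and 0.689% in SE 2 days and 0.218% and 2.52% in SE + LEV 2 days. In SE 6 h replicate 1 the Cda level exceeded those of all partners but Cmpk1. Without Cda, the other 6 enzymes summed to 204 to 352 CPM over the 10 mice.

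At 2 days, the SE mice were compared with the same 2 pre-SE mice. Again 0 of 6 enzymes were called by limma, edgeR or DESeq2 (5.66% of all genes were called by limma), 0 had an unadjusted p under 0.05 by limma (19.8% of all genes did), and 1 did by DESeq2. Uck2 and Cmpk1 had both SE 2 days values above the pre-SE pair (26.3% of all genes did) and Tk2 both below (25.6%). The estimate for Uck2 was 0.76 (95% interval -0.08 to 1.61, limma adjusted p = 0.301), which became 0.37 without SE 2 days replicate 2. Cmpk1 was at 0.34 (limma adjusted p = 0.609) and Tk2 at -0.46 (limma adjusted p = 0.356).

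Between SE 6 h and SE 2 days, Cda and 5 of the 6 other enzymes stood in opposite orders. The direction of Cda here comes from the values that chose it, so this contrast is a description. While Cda was lower in both SE 2 days mice, Uck1, Uck2, Dck, Dctd and Cmpk1 were each higher in both than in either SE 6 h mouse (31% of all genes were), and Tk2 was lower in both (20.1%). Uck2 gave the largest estimate of the 6, 1.09 (95% interval 0.24 to 1.93), with an unadjusted p of 0.0165 in limma's fit across all genes. It did not pass the adjustment (limma adjusted p = 0.149, from 0.0495 to 0.493 over the alternatives), and became 0.69 without SE 2 days replicate 2. Called by limma, edgeR or DESeq2 were 0 of 6, beside 4.25% of all genes by limma, and Uck2 alone had an unadjusted p under 0.05, as 20.1% of all genes did.

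**Figure D3:**
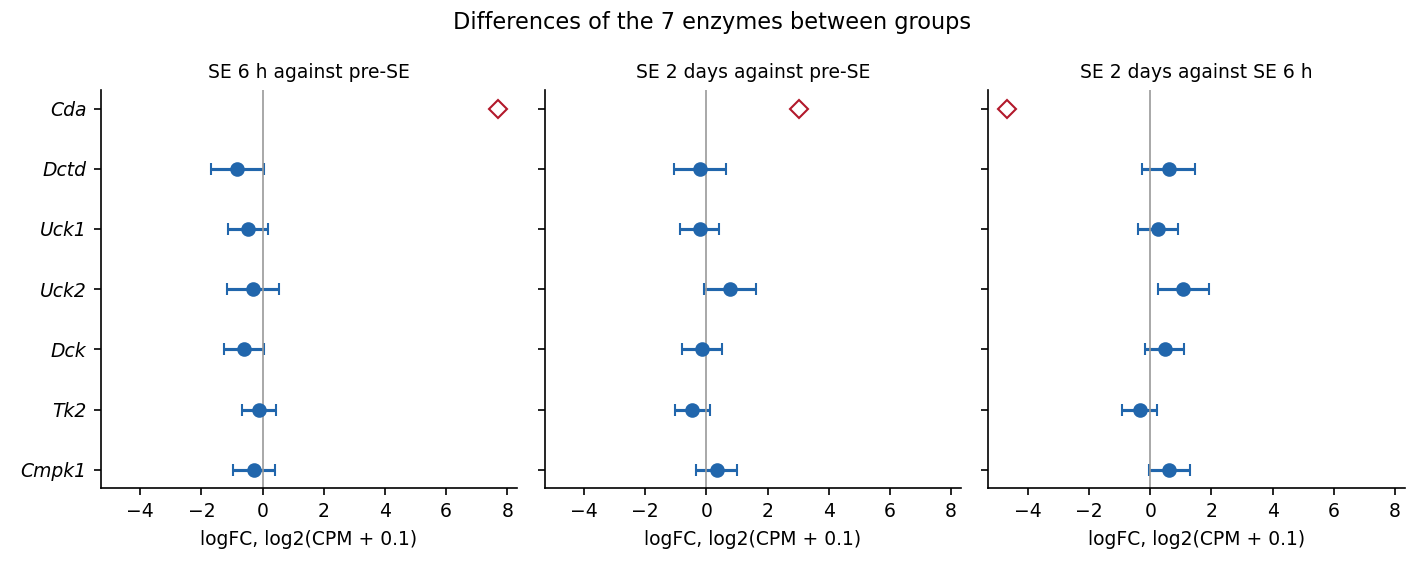
Difference in log2(CPM + 0.1) (horizontal axes) of the 7 enzymes in 3 comparisons. Filled circles with bars are estimates with 95% intervals from limma, and open diamonds are Cda, shown without an interval because its values chose the set; Cda lies at 7.70, 3.03 and -4.67 and the other enzymes between -0.82 and 1.09.

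The ratio of Uck2 to Uck1, 2 kinases with the same substrates, was 1.002 and 0.819 before SE, 1.03 and 0.987 in SE 6 h, 1.08 and 1.11 in SE + LEV 6 h, 1.37 and 2.34 in SE 2 days and 1.36 and 0.901 in SE + LEV 2 days. Only the SE 2 days mice both lay above all pre-SE and 6 h mice.

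LEV was compared with SE alone at each time. At 6 h 0 of 6 enzymes other than Cda had both LEV-treated mice above or both below the SE mice (16.1% and 13.4% of all genes did), with estimates from -0.17 for Uck1 to 0.55 for Dctd, and limma called 0 of 6 beside 0.0126% of all genes. At 2 days Cmpk1 was lower in both LEV-treated mice (-0.63, 95% interval -1.30 to 0.05, limma adjusted p = 1.0) and Tk2 higher in both (0.36, limma adjusted p = 1.0), where 12.2% and 15.2% of all genes lay so, and limma called 0 of 6 and 0% of all genes. No enzyme had an unadjusted p under 0.05 in either comparison (4.58% of all genes did at 6 h and 2.7% at 2 days), and edgeR and DESeq2 called 0 of 6. For Uck2, the estimate of -0.60 at 2 days had an interval of -1.44 to 0.24, wide enough to hold both no difference and a decrease of more than 2-fold.

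The difference between the LEV effects at 2 days and at 6 h, an interaction term, passed for 0 of 6 enzymes and 0% of all genes in limma's fit, with the lowest unadjusted p at 0.165 for Cmpk1 (2.38% of all genes were under 0.05). Against the same pre-SE mice, 0 of 6 were called in SE + LEV 6 h (0.322% of all genes) and 0 of 6 in SE + LEV 2 days (2.85%), with no unadjusted p under 0.05 (9.38% and 10.8% of all genes). SE + LEV 2 days against SE + LEV 6 h also gave 0 of 6, beside 2.14% of all genes, and 0 of 6 with an unadjusted p under 0.05, beside 11.9%. edgeR and DESeq2 called 0 of 6 in each of these comparisons.

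A wider list of 41 genes, of which 32 were analysed here and are called pathway genes below, was set beside the enzymes. It reaches beyond pyrimidine metabolism, for example to the deoxyguanosine kinase Dguok and to genes that share only the deaminase fold with Cda. At 6 h limma, edgeR and DESeq2 called 0 of 32 in either direction, beside 2.96% of all genes by limma. By limma 1 had an unadjusted p under 0.05 and was higher (9.21% of all genes), and 7 were lower (8.51%), a number that was 4 by edgeR, 3 by DESeq2 and 4 with median-of-ratios scaling. The median over the list was -0.33 beside -0.13 for all genes, and -0.21 beside -0.00473 after rescaling by the median of gene-wise ratios. In 18 of 32 genes both SE 6 h mice were lower than either control mouse (31.3% of all genes), and in 3 of 32 both were higher (18.6%).

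Among the other salvage enzymes, Upp2, the liver-type uridine phosphorylase, was the most abundant, at 77.98 and 43.72 CPM before SE and 55.58 and 41.66 in SE 6 h, which overlapped. Of de novo synthesis, which builds the ring from small molecules, 0 of 5 genes were called at 6 h by limma (2.96% of all genes were). Its most abundant member Ctps, which makes CTP from UTP, had 30.42 and 40.80 CPM before SE and 40.80 and 50.02 in SE 6 h. The gene of deoxynucleotide supply with the highest mean over the 10 libraries, Dtymk, which phosphorylates dTMP, had 43.01 and 58.44 CPM before SE and 42.18 and 45.09 in SE 6 h (-0.20, limma adjusted p = 0.718). Dpyd, which starts pyrimidine breakdown, stood at 26.28 and 23.57 CPM and then at 23.00 and 17.13.

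Nt5c, a nucleotidase that returns monophosphates to nucleosides, had 74.98 and 74.61 CPM before SE and 53.40 and 36.66 in SE 6 h (-0.76, limma adjusted p = 0.198). Slc29a1, the equilibrative transporter that carries nucleosides across the membrane, had 21.83 and 25.28 CPM and then 13.98 and 21.24. Cdadc1, a relative of Cda by its deaminase fold and the most abundant of that kind, had 79.18 and 79.04 CPM before SE and 78.16 and 57.62 in SE 6 h. None of the 3 was called by limma (2.96% of all genes were). In each, both SE 6 h values were below the pre-SE pair, as in 31.3% of all genes. The nearest values were 21.24 against 21.83 CPM for Slc29a1 and 78.16 against 79.04 for Cdadc1.

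At 2 days 4 of 32 genes were called higher than before SE and 0 lower, beside 5.07% and 0.593% of all genes. Tk1, the cytosolic thymidine kinase of dividing cells, rose from 0.21 and 0.17 CPM to 2.84 and 3.63 (3.52, limma adjusted p = 0.00409). Rrm2, the S-phase subunit of ribonucleotide reductase, rose from 0.52 and 0.81 to 6.23 and 11.46 CPM (3.51, limma adjusted p = 0.00435). Both supply deoxynucleotides to cells that copy their DNA.

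The other called genes were relatives of Cda by fold. Apobec1, a cytidine deaminase that edits RNA, rose from 0.86 and 0.60 CPM to 7.25 and 9.60 (3.36, limma adjusted p = 0.0013), and Apobec3, which deaminates viral DNA, from 1.10 and 1.37 to 4.07 and 4.16 (1.67, limma adjusted p = 0.0275). At 6 h neither was called, with Apobec1 at 1.06 and 0.82 CPM and Apobec3 at 1.44 and 1.85. Both genes were thus higher in SE 2 days than in SE 6 h mice. Without SE 2 days replicate 2, 1 of the 32 was called in place of 4.

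Markers of other cells moved with these genes. The 4 proliferating-cell markers analysed summed to 2.02 to 3.70 CPM before SE, 1.63 to 1.79 in SE 6 h and 43.5 to 53.5 in SE 2 days. The sum of the microglia markers was higher at 2 days as given above. Among these, P2ry12 alone was lower, at 41.45 and 26.88 CPM before SE and 18.06 and 16.91 in SE 2 days. The part of proliferating cells or microglia in the values of Tk1, Rrm2, Apobec1 and Apobec3 was not tested.

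Against SE 6 h, SE 2 days mice had 4 of 32 genes higher and 0 lower (3.14% and 1.11% of all genes), namely Tk1, which had 0.03 and 0 CPM in SE 6 h, where 0 tags allow up to 0.206 CPM (limma adjusted p = 0.00241), Rrm2 (limma adjusted p = 0.00923), Apobec1 (limma adjusted p = 0.00311) and the thymidylate synthase Tyms (limma adjusted p = 0.0461). Tyms had 3.56 and 3.43 CPM in SE 6 h and 12.72 and 11.27 in SE 2 days. The Tyms call was lost by edgeR (adjusted p = 0.0618) and with the replicate number as a block (limma adjusted p = 0.0679), and 3 of 32 were called in each of these and with median-of-ratios scaling. The count was 2 without SE 6 h replicate 1, SE 6 h replicate 2 or SE 2 days replicate 2. With LEV against SE alone, limma, edgeR and DESeq2 called 0 of 32 at both times, beside 0.0126% of all genes at 6 h and 0% at 2 days by limma. By limma 1 gene at 6 h (4.58% of all genes) and 0 at 2 days (2.7%) had an unadjusted p under 0.05.

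**Figure D4:**
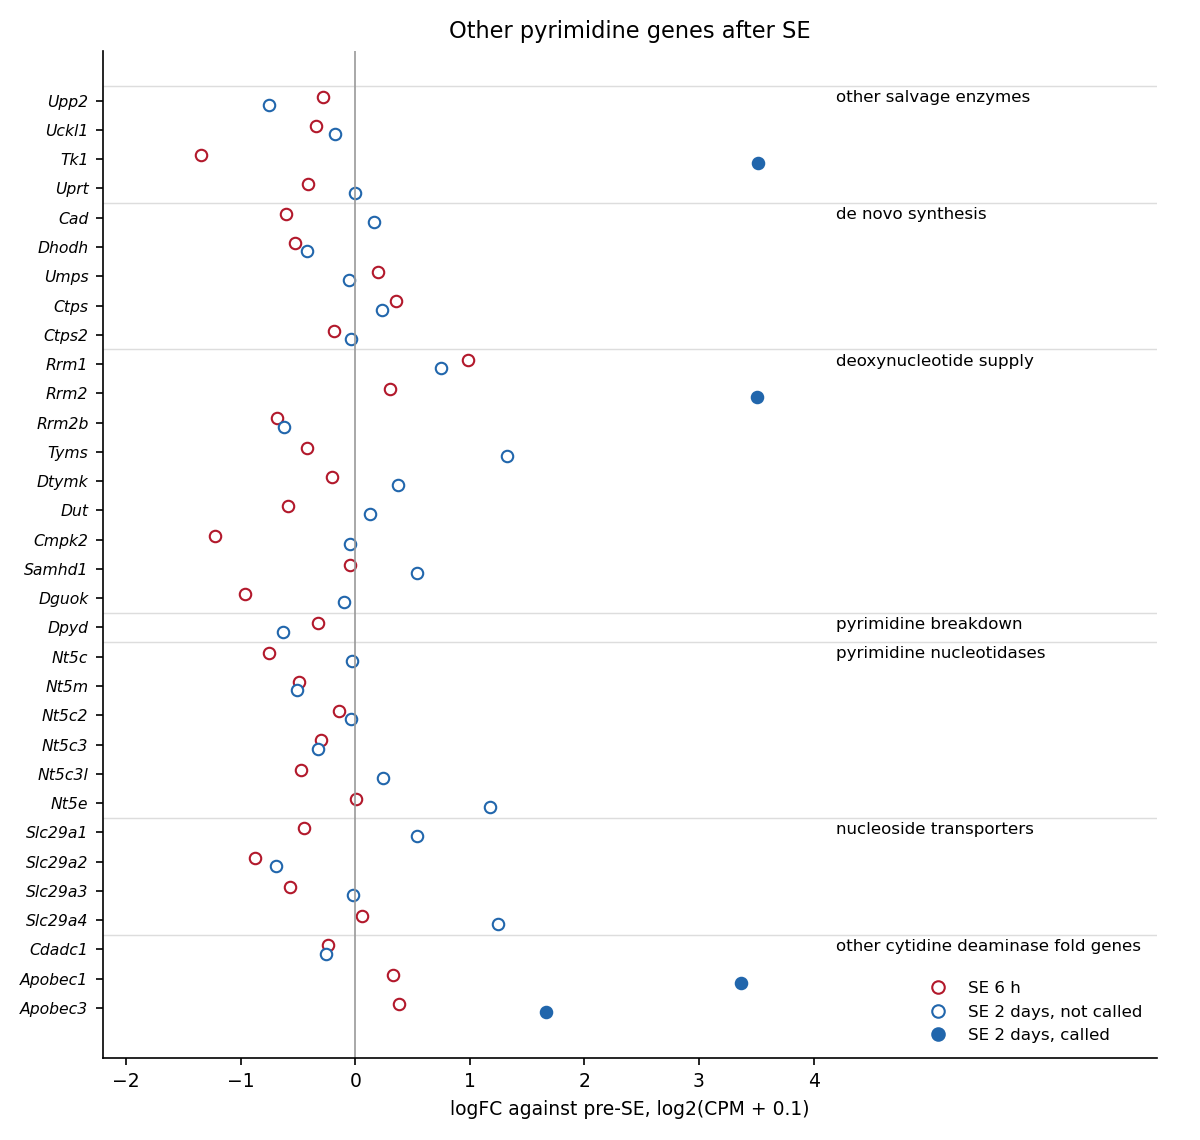
Difference from pre-SE in log2(CPM + 0.1) (horizontal axis) of the 32 genes of the wider list, grouped by role, at 6 h (red) and 2 days (blue) after SE. Filled points passed an adjusted p of at most 0.05 in limma; no gene did at 6 h, and Tk1, Rrm2, Apobec1 and Apobec3 did at 2 days.

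The genes whose pattern over the 10 libraries was most like that of Cda did not belong to its pathway. By Pearson's r of log2(CPM + 0.1), a description over 10 libraries that share the 2 high SE 6 h mice, they were Tcf12 (0.951), Kctd15 (0.951), Gm11816 (0.947), Srxn1 (0.937), Morc2a (0.930), Mpo (0.925), Parp8 (0.923) and Rad54l2 (0.922). The other 6 enzymes had r from -0.60 for Uck1 to -0.06 for Tk2, where 10.5% and 54.0% of genes had a lower r. Srxn1, the sulfiredoxin that repairs oxidised peroxiredoxins, had 110.19 and 59.10 CPM before SE, 502.05 and 325.74 in SE 6 h and 242.82 and 373.31 in SE + LEV 6 h. Like Cda, it was higher in replicate 1 of SE 6 h and in replicate 2 of SE + LEV 6 h. That order entered the r by which Srxn1 was chosen, so it is not a separate result.

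Mpo, the myeloperoxidase of neutrophil granules, had 0 (which allows up to 0.103) and 0.02 CPM before SE, 3.40 and 1.16 in SE 6 h and 0.07 and 0.28 in SE + LEV 6 h. Within each of these SE groups its mice stood in the same order as for Cda, which likewise entered its choice by r. At 2 days Mpo had 0.08 and 0.24 CPM in SE and 0 (which allows up to 0.0686) and 0.21 in SE + LEV mice. Because Mpo is a blood cell marker, the sums of its list and the values of the other genes follow. Of 9 neutrophil markers 4 were analysed here, and these summed to 5.04 to 5.86 CPM before SE, 8.90 to 9.33 in SE 6 h, 8.64 to 10.3 in SE + LEV 6 h, 12.5 to 15.0 in SE 2 days and 15.2 to 25.3 in SE + LEV 2 days. Most of these sums before SE and at 2 days was Csf3r, the receptor for granulocyte colony-stimulating factor. Csf3r had 4.45 and 4.24 CPM before SE, 2.63 and 2.67 in SE 6 h and 3.62 and 4.36 in SE + LEV 6 h. At 2 days it had 11.32 and 10.13 CPM in SE and 13.40 and 22.43 in SE + LEV mice. Csf3r was thus lower in SE 6 h than before SE, whereas Mpo, S100a8 and S100a9 were higher. S100a8, an abundant neutrophil protein, had 0.21 and 0.81 CPM before SE, 1.44 and 2.40 in SE 6 h, 2.29 and 2.85 in SE + LEV 6 h, 0.55 and 2.39 in SE 2 days and 1.21 and 1.60 in SE + LEV 2 days. The order of the 2 mice was that of Cda in the last 3 of these groups and the reverse before SE and in SE 6 h. S100a9, its partner, had 0.38 and 0.79 CPM before SE, 1.86 and 2.67 in SE 6 h and 2.66 and 2.85 in SE + LEV 6 h. At 2 days S100a9 had 0.55 and 2.24 CPM in SE and 0.55 and 1.07 in SE + LEV mice.

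The 4 of 6 monocyte and macrophage markers analysed summed to 1.19 to 2.69 CPM before SE, 7.82 to 10.7 in SE 6 h, 6.16 to 6.35 in SE + LEV 6 h, 48.0 to 61.8 in SE 2 days and 10.1 to 69.7 in SE + LEV 2 days. The 5 endothelial markers summed to 70.5 to 73.0, 111 to 174, 96.1 to 152, 99.2 to 124 and 95.5 to 149.8 CPM in the same groups. Most of the monocyte and macrophage sums in SE 2 days was Msr1, at 37.78 and 53.25 CPM, which had 56.42 and 3.45 in SE + LEV 2 days. Plac8 and Ms4a7 were also higher in both SE 2 days mice than before SE. Mrc1, at 2.50 and 1.15 CPM in SE 2 days, overlapped its 0.72 and 1.72 before SE. Slco1a4 had 16.24 and 13.11 CPM before SE and 3.75 and 4.80 in SE 6 h, whereas the other endothelial markers were higher in SE 6 h. The part of blood or vessel cells in the Cda values was not tested.

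**Figure D5:**
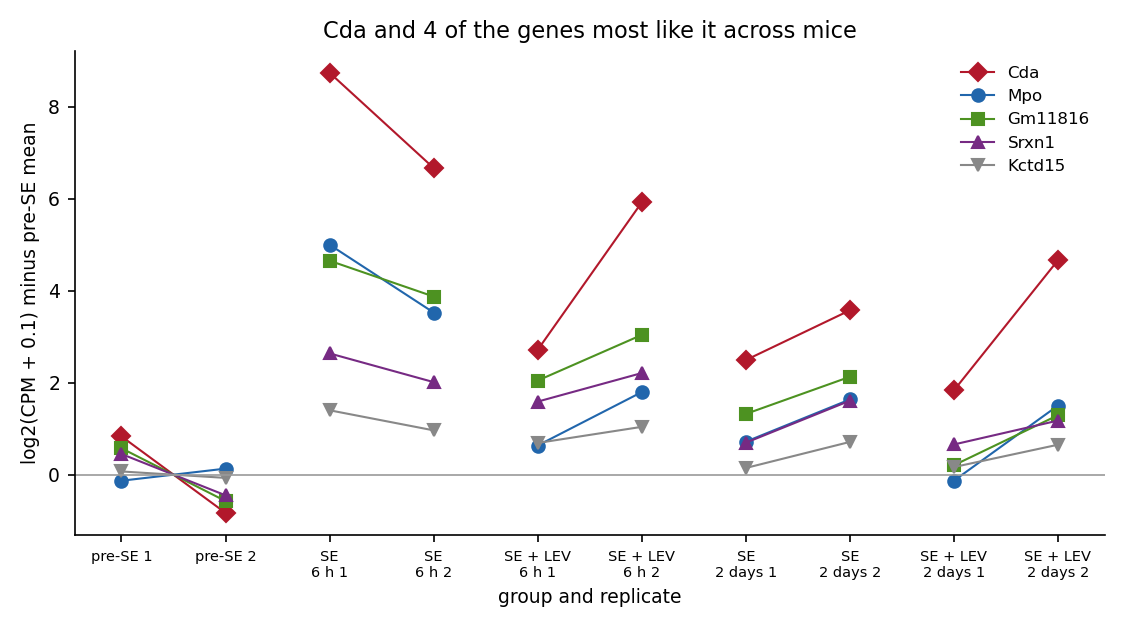
Cda, Mpo, Gm11816, Srxn1 and Kctd15 in log2(CPM + 0.1) minus the pre-SE mean of each gene (vertical axis), in each of the 10 mice (horizontal axis, group and replicate). Lines join the 2 mice of a group. Within SE 6 h all 5 genes are higher in replicate 1 and within SE + LEV 6 h in replicate 2. This order entered the r by which the genes beside Cda were chosen.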

How the data were processed

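CAGE libraries from the hippocampi of 10 mice, 2 in each of 5 groups, were made and processed by the authors. Per the labels and the study's methods, tags were aligned to mm9 with BWA (version 0.7.17) and HISAT2 (version 2.0.5), clustered, and filtered with bedtools (version 2.12.0) for clusters shared between replicates, and edgeR (version 3.22.5) was among the tools named. The authors deposited CPM per gene with 2 decimals, so genes without reproducible clusters may be absent. Only the CPM values of the 10 libraries were used.

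Genes that reached 0.1 CPM in 2 or more libraries (15851 of 15900) were tested on log2(CPM + 0.1) with limma (version 3.58.1) in R (version 4.3.3), 1 fit over all 5 groups, with Benjamini-Hochberg adjustment over all genes and a call at an adjusted p of at most 0.05. An exact permutation test of 2 against 2 mice cannot go below 0.333 and was not used. Whole tags were recovered from the steps of the CPM values (100% whole within rounding) and tested with edgeR (version 4.0.16) and DESeq2 (version 1.42.0) as alternatives. The scripts were tested on simulated data. Pseudocounts, filters, scaling, a replicate block and leaving out each mouse were the other alternatives.

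The enzymes, the pathway and marker lists and the rule for named genes (all listed enzymes, every called pathway gene, the most abundant gene of each role, the 8 genes most like Cda) were chosen with earlier results of these data known. All comparisons with pre-SE share the same 2 mice. Replicate numbers did not pair the mice, which were different animals. Coordinates are 1-based. Intervals on tags cover counting error only.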

Additional observations from a re-analysis of the deposited data

How the results depend on the processing

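Over 20 alternatives, 579 of 600 values of the 6 enzymes other than Cda kept their direction and their side of the threshold, 20 changed sign and 1 was newly called. With the replicate number as a block, 0 of 6 enzymes were called in every comparison, and the pathway genes called were 4 for SE 2 days against pre-SE and 3 for SE 2 days against SE 6 h, where Tyms was lost (adjusted p = 0.0679). The deviations of same-numbered mice correlated from -0.44 (pre-SE with SE + LEV 2 days) to 0.34 (pre-SE with SE 6 h) over 15851 genes, with both signs among the 10 pairs of groups. With the numbers crossed in SE + LEV 2 days, chosen after seeing the data, 1 enzyme (Uck2) was called higher in SE 2 days than in SE 6 h.

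The Cda differences shrank with a pseudocount of 1, to 5.32 (SE 6 h against pre-SE), 1.23 (SE 2 days against pre-SE), 2.30 (SE + LEV 6 h against pre-SE) and 1.501 (SE + LEV 2 days against pre-SE), as a larger constant must do to a gene near 0. Leaving out 1 mouse, Cda ranged from -1.20 to 1.63 between SE + LEV 2 days and SE 2 days and from -2.67 to 0.53 between SE + LEV 2 days and SE + LEV 6 h. The count of pathway genes called ranged from 1 to 4 for SE 2 days against pre-SE and from 2 to 4 for SE 2 days against SE 6 h. DESeq2 called 6 and 5 there, and edgeR 4 and 3.

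Signs turned as follows, and the cause was not tested. For SE 6 h against pre-SE, Tk2 was 0.0153 with median-of-ratios scaling, 0.033 by edgeR and 0.0353 by DESeq2, and without 1 mouse ran from -0.40 to 0.17, and Cmpk1 from -0.62 to 0.0539. For SE + LEV 6 h against SE 6 h, Cmpk1 was -0.0419 with that scaling, -0.0698 by edgeR and -0.0778 by DESeq2, and without 1 mouse ran from -0.32 to 0.35, Tk2 from -0.33 to 0.25, Uck2 from -0.22 to 0.13 and Dck from -0.0638 to 0.29. For SE 2 days against pre-SE the ranges were -0.43 to 0.0102 for Dctd, -0.59 to 0.15 for Uck1 and -0.41 to 0.11 for Dck. For SE + LEV 2 days against SE 2 days they were -0.0344 to 0.40 for Dctd, -0.15 to 0.35 for Uck1 and -0.0268 to 0.13 for Dck.

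Counts over all genes moved more: 437 genes were called higher in SE 6 h than in pre-SE mice (1008 by DESeq2, and 108 to 494 without 1 mouse) and 803 in SE 2 days (1260 by DESeq2, and 245 to 990). Lower were 32 (99 by DESeq2) and 94 (347 by DESeq2). With 2 mice a group, a difference that was not called may still be as large as its interval allows.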

Other observations

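Several genes of deoxynucleotide supply outside the named enzymes lay lower at 6 h without passing the adjustment, and they are given as values chosen after they were seen. Dguok, the mitochondrial deoxyguanosine kinase, had 33.35 and 35.43 CPM before SE, 19.24 and 16.03 in SE 6 h and 37.78 and 27.32 in SE 2 days (SE 6 h against pre-SE -0.96, limma adjusted p = 0.156). Cmpk2, a mitochondrial nucleoside monophosphate kinase, had 12.28 and 10.73 CPM, 4.23 and 5.55, and 17.68 and 6.97 in the same groups (-1.23, limma adjusted p = 0.16). Rrm1, the large subunit of ribonucleotide reductase, stood the other way, at 17.31 and 12.78 CPM before SE and 27.33 and 32.00 in SE 6 h (0.99, limma adjusted p = 0.204).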
